A study of Mus musculus with 2 samples.

Results

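The 10 genes that encode the enzymes and the helper protein of prostaglandin, thromboxane and leukotriene synthesis were read in stimulated mouse macrophages, 10 of the 55536 annotated genes in the deposited tables. They were chosen by name, with no measured value in the rule, though earlier results of these data were known. The genes were Pla2g4a, Ptgs1, Ptgs2, Ptges, Ptges2, Ptges3, Tbxas1, Alox5ap, Alox5 and Lta4h, and all 10 were found in the gene tables of both libraries. The series holds polyadenylated RNA from whole cell extracts of bone marrow macrophages of C57BL/6J mice, cells grown in culture from marrow precursors, in 1 group of 2 libraries that the labels number as biological replicates 2 and 1. The cells had received the stimulus at 100 ng/mL for 300 min, and the labels name it in conflicting ways, as Lipid A in one field and as a lipoprotein in others. Both libraries come from separate biosample records of the same donor record, and nothing says that they were separate cultures of separate animals. No unstimulated group was analysed, so each value is a level after the stimulus and none is a response to it.

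Prostaglandins and leukotrienes are short-lived lipid signals made from arachidonic acid, a fatty acid stored in membrane phospholipids. A phospholipase frees the acid, and separate routes then compete for it: the cyclooxygenases COX-1 and COX-2 make prostaglandin H2, which further synthases turn into prostaglandin E2, prostaglandin D2, thromboxane and other products, while 5-lipoxygenase with its helper protein FLAP makes leukotriene A4, which a hydrolase turns into leukotriene B4. In macrophages COX-2 is known as the inducible cyclooxygenase of inflammation and COX-1 as the form present at rest.

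Replicate 2 held 63705317 expected counts as deposited, and replicate 1 held 38078399. The labels give them separate biosample records, and on that ground they count as 2 samples. Their counts were not alike within sampling noise (chi-square of 325 for each of 12226 genes on average). With 2 libraries, differences in library preparation and in the cells cannot be told apart, and neither was tested. Macrophage markers were high throughout: 10 of 10 stood at 1 TPM or more in both libraries (the deposited level per transcript length, which sums to the same total in each library), with Lyz2 at 13567 TPM in replicate 2 and 10495 in replicate 1 and Cd68 at 5400 TPM in replicate 2 and 2496 in replicate 1. Neutrophil markers summed to 180 TPM in replicate 2 and 599 in replicate 1, with 5 of 13 at 1 TPM in both, S100a9 at 10.2 TPM in replicate 2 and 316 in replicate 1, Csf3r at 153 TPM in replicate 2 and 81.7 in replicate 1, and the defining marker Ly6g at 0 in both. Platelet and megakaryocyte markers summed to 107 TPM in replicate 2 and 768 in replicate 1, 2 of 8 detected, nearly all of it Pf4 (105 TPM in replicate 2, 753 in replicate 1) and Ppbp (1.68 TPM in replicate 2, 11.8 in replicate 1). Mast cell and basophil markers (0 of 8 detected, summed level 0.55 TPM in replicate 2 and 1.96 in replicate 1, led by Kit and Cpa3), eosinophil markers (0 of 4, led by Prg2 and Siglecf), fibroblast markers (0 of 5, led by Col1a1 and Col1a2) and B and T cell markers (0 of 6) were near 0.

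Of the 10 synthesis genes 9 stood at 1 TPM or more in both libraries, and only Alox5, the gene of 5-lipoxygenase, did not. The same level was reached by 18.0% of all annotated genes and by 42.4% of the 22028 protein-coding genes. Of the 10, 7 were at 10 TPM or more in both libraries, and Ptgs2 and Alox5ap at 100 TPM or more. The median over the 10 genes was 24.3 TPM in replicate 2 and 32.1 in replicate 1, beside medians of 13.5 TPM in replicate 2 and 14.4 in replicate 1 over the 9982 genes detected in both. By mean TPM the order was Ptgs2, Alox5ap, Ptges3, Tbxas1, Pla2g4a, Ptges, Lta4h, Ptges2, Ptgs1 and Alox5. Of the 9 neighbouring pairs in it 6 did not overlap between the libraries, while Ptges3 and Tbxas1, Tbxas1 and Pla2g4a, and Ptges2 and Ptgs1 did. In bulk RNA, fewer cells with a transcript and less of it per cell cannot be told apart.

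**Figure D1:**
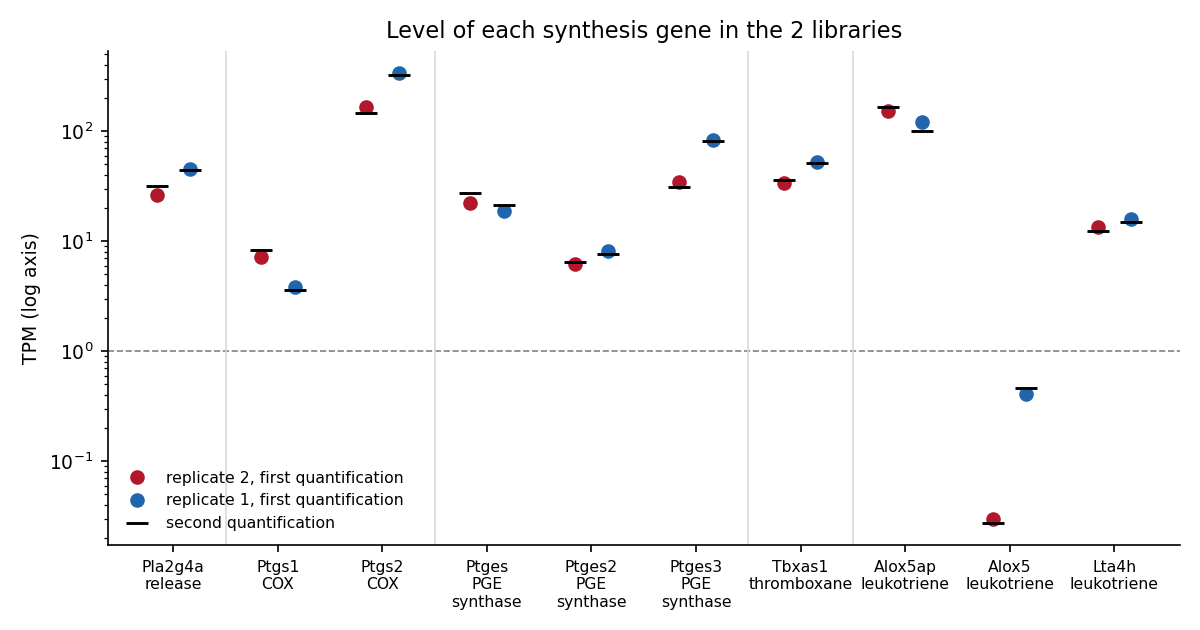
Level in TPM on a log axis of the 10 synthesis genes, ordered by their step in the pathway, in replicate 2 (left point of each gene) and replicate 1 (right point), with black bars for the second quantification and a dashed line at 1 TPM. In the first quantification Ptgs2 and Alox5ap stand above 100 TPM in both libraries and Alox5 below 1 TPM in both.

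Promoters of 3 genes were read from RefSeq's GRCm38.p6 annotation to set the sequence at the start of the highest gene, Ptgs2, beside that of its low paralog Ptgs1 and of Alox5, the gene near 0. Each window runs from 250 bases before the gene's start to 50 bases into it, 5′ to 3′ on the gene's strand: chr1:150099781-150100080 (plus strand) for Ptgs2, chr2:36230176-36230475 (plus strand) for Ptgs1 and chr6:116461129-116461428 (minus strand) for Alox5. Capitals mark matches to the motifs searched.
Ptgs2: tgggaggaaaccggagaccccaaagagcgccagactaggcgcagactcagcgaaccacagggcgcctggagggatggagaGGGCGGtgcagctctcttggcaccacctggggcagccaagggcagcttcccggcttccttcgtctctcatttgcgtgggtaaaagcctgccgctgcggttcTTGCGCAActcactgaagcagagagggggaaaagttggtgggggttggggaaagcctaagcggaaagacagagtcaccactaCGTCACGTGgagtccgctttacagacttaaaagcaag
Ptgs1: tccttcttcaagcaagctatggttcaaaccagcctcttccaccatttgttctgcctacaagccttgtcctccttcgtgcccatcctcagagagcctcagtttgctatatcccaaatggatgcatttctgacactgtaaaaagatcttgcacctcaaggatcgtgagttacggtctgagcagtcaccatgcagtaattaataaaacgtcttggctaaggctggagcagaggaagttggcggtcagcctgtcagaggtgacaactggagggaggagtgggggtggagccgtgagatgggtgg
Alox5: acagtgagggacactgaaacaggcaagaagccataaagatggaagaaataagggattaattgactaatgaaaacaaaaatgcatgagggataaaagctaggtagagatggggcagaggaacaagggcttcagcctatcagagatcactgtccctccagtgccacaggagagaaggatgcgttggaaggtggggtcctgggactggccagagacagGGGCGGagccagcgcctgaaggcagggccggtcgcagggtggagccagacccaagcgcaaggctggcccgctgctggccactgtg

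The motifs were searched on both strands: the NF-kB site, the CRE half-site TGACG, the C/EBP site TTGCNNAA, the E-box CACGTG, the GC box GGGCGG and the TATA box TATAAA. Positions count from the annotated start, and would shift with another choice of start. The Ptgs2 window held a GC box from base -170 to -165 and a C/EBP match from -69 to -62. Overlapping each other just inside the annotated gene were a CRE half-site on the minus strand from 14 to 18 and an E-box from 17 to 22. The Ptgs1 window held no match to these letters, and the Alox5 window held a single GC box from -35 to -30. Over all 32851 promoters of the table, 20.8% held the CRE half-site, 10.8% the C/EBP site, 7.15% the E-box, 35.7% the GC box, 8.46% the NF-kB site and 13.6% the TATA box. Among the 9 of 10 genes with a promoter entry (Alox5ap is named only), the NF-kB letters matched in Ptges3, the CRE half-site in Ptgs2 and Ptges3, the E-box in Ptgs2 and Ptges2, the GC box in Ptgs2, Ptges, Ptges3 and Alox5, and the TATA box in Pla2g4a and Tbxas1. The TATA box letters of Pla2g4a lay from -200 to -195 on the minus strand, in the second of its 2 promoter entries. Those of Tbxas1 lay from -13 to -8 on the minus strand and from -11 to -6 on the plus strand. The Ptgs2 window also holds the start of Ptgs2os, an antisense gene. A match describes the letters of a window and no binding was measured.

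The pathway begins with Pla2g4a, which encodes cytosolic phospholipase A2 alpha, the calcium-dependent enzyme that frees arachidonic acid from membranes. Pla2g4a (ENSMUSG00000056220.14, mm10 chromosome 1, 149829618 to 149961290, minus strand) had 26.2 TPM in replicate 2, from 2810 expected counts, and 45.3 in replicate 1, from 2922. Its level was thus above 10 TPM in both libraries and higher in replicate 1. The mean was 35.7 ± 13.5 TPM (SD, n = 2). Transcript Pla2g4a-201, which is protein-coding, carried 99.1% of the gene's TPM in replicate 2 and 99.8% in replicate 1. In the second quantification its share was 74.3% in replicate 2 and 97.3% in replicate 1. Pla2g4a and Ptgs2 are neighbours on the chromosome, 138740 bases apart.

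Ptgs2, which encodes the inducible cyclooxygenase COX-2, was the highest of the 10 genes. Ptgs2 (ENSMUSG00000032487.8, mm10 chromosome 1, 150100031 to 150108227, plus strand) had 164 TPM in replicate 2, from 28410 expected counts, and 336 in replicate 1, from 35095. It was the highest synthesis gene in each library, ranking 932 among all genes in replicate 2 and 476 in replicate 1. Its mean was 250.1 ± 122 TPM (SD, n = 2). Transcript Ptgs2-201 held 100% of the TPM in replicate 2 and 99.9% in replicate 1. The 3′ UTR annotated for that transcript is 2445 bases long and held 14 copies of ATTTA, the core of the AU-rich elements known to shorten the life of many cytokine mRNAs. As many copies were found in 1.81% of 9113 detected protein-coding genes, whose median was 1 copy, with 35.6% at none. Their median 3′ UTR is 886 bases long, shorter than that of Ptgs2, and length was not matched. Per 1000 bases Ptgs2 held 5.73 copies, and Pla2g4a more, at 9.03. Pla2g4a, Ptges2 and Ptges3 held 4 copies, Alox5 and Alox5ap 2, and Ptgs1, Ptges, Lta4h and Tbxas1 none.

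Ptgs1, which encodes COX-1, was low beside it. Ptgs1 (ENSMUSG00000047250.13, mm10 chromosome 2, 36230426 to 36252272, plus strand) had 7.25 TPM in replicate 2, from 577 expected counts, and 3.81 in replicate 1, from 241, a mean of 5.53 ± 2.43 TPM (SD, n = 2). Unlike Ptgs2 it was higher in replicate 2. The coding transcript Ptgs1-201 held 70.1% of the TPM in replicate 2 and 97.3% in replicate 1. The processed transcript Ptgs1-203, 573 bases long, held 29.9% in replicate 2, from 29.2 expected counts, and 0 in replicate 1. In counts, 94.9% in replicate 2 and 99.6% in replicate 1 came from the coding transcript. In the second quantification Ptgs1-203 held 47.8% in replicate 2 and 0 in replicate 1. Ptgs2 therefore stood 22.6-fold above Ptgs1 in replicate 2 (95% counting interval 20.8 to 24.6) and 88.2-fold above it in replicate 1 (77.7 to 101). COX-2 transcripts made up 97.3 ± 2.20% of the TPM of both cyclooxygenase genes (SD, n = 2), at 95.8% in replicate 2 and 98.9% in replicate 1. Pla2g4a stood below Ptgs2 by 6.27-fold in replicate 2 and 7.43-fold in replicate 1. Those intervals, here and below, are exact binomial and cover counting error only, since amplified reads without molecular identifiers are not independent molecules. For TPM ratios they also hold each gene's TPM per count fixed, so error in assigning reads to transcripts is left out.

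Ptges, Ptges2 and Ptges3 encode enzymes with prostaglandin E synthase activity, and together they carried 63.5 TPM in replicate 2 and 110 in replicate 1. Ptges encodes the membrane-bound synthase mPGES-1, which is known to work together with COX-2. Ptges (ENSMUSG00000050737.13, mm10 chromosome 2, 30889471 to 30929863, minus strand) had 22.4 TPM in replicate 2, from 2027 expected counts, and 18.9 in replicate 1, from 1276, a mean of 20.6 ± 2.52 TPM (SD, n = 2). The libraries lay close to each other for this gene. Its protein-coding transcript Ptges-202 held 59.2% of the TPM in replicate 2 and 77.4% in replicate 1, and the processed transcript Ptges-201, 703 bases long, held the other 40.8% in replicate 2 and 22.6% in replicate 1. In counts, 91.5% in replicate 2 and 96.4% in replicate 1 came from the coding transcript, because a short transcript needs few counts to reach a given TPM. In the second quantification Ptges-201 led in replicate 2, with 54.4% against 39.5% for Ptges-202.

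Ptges3 encodes the small protein p23, known both as a cytosolic prostaglandin E synthase and as a co-chaperone of Hsp90, and its mRNA is therefore no measure of prostaglandin synthesis alone. Ptges3 (ENSMUSG00000071072.12, mm10 chromosome 10, 128058954 to 128077272, plus strand) had 34.8 TPM in replicate 2, from 2503 expected counts, and 82.9 in replicate 1, from 3566, a mean of 58.9 ± 34.1 TPM (SD, n = 2). It was the highest of the 3 E synthase genes in both libraries, at 54.8% of their summed TPM in replicate 2 and 75.5% in replicate 1, and the pair Ptges and Ptges3 differed by 1.55-fold in replicate 2 and 4.40-fold in replicate 1, with Ptges the lower. A processed pseudogene, Ptges3-ps, was listed at 23.6 TPM in replicate 2, from 230 expected counts, and 31.8 in replicate 1, from 166. Reads that the gene and its copy share were divided between them in the deposited counts, so both values are uncertain.

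Ptges2 encodes the membrane-associated synthase mPGES-2, and most of its transcript level was not in its coding form. Ptges2 (ENSMUSG00000026820.5, mm10 chromosome 2, 32395896 to 32405772, plus strand) had 6.27 TPM in replicate 2, from 236 expected counts, and 8.12 in replicate 1, from 176, a mean of 7.20 ± 1.31 TPM (SD, n = 2). The retained-intron transcript Ptges2-203, 765 bases long, held 85.1% of the TPM in replicate 2 and 88.3% in replicate 1. The coding transcript Ptges2-201, 4978 bases long in the annotation, held 9.69% in replicate 2 and 9.13% in replicate 1, which is 0.61 TPM in replicate 2 and 0.74 in replicate 1. In counts the coding transcript took 50.1% in replicate 2 and 49.6% in replicate 1, so the small share of TPM rests on its annotated length, of which 3444 bases are 3′ UTR. Ptges2 was thus below 1 TPM in both libraries when coding transcripts alone were counted, whereas Ptges had 13.3 TPM in replicate 2 and 14.6 in replicate 1 in its coding transcript. By whole-gene TPM, Ptges stood 3.57-fold above Ptges2 in replicate 2 and 2.32-fold above it in replicate 1.

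Tbxas1 encodes thromboxane A synthase, which turns prostaglandin H2 into thromboxane A2, a platelet activator that macrophages also make. Tbxas1 (ENSMUSG00000029925.13, mm10 chromosome 6, 38875404 to 39084585, plus strand) had 33.5 TPM in replicate 2, from 2588 expected counts, and 52.7 in replicate 1, from 2260, a mean of 43.1 ± 13.6 TPM (SD, n = 2). It exceeded Ptges by 1.49-fold in replicate 2 and by 2.79-fold in replicate 1. Transcript Tbxas1-201 carried 88.5% of the TPM in replicate 2 and 87.6% in replicate 1. Its locus overlaps that of Hipk2 on the other strand by 762 bases, and Hipk2 stood at 39.8 TPM in replicate 2 and 17.0 in replicate 1. Whether counting used the strand is not stated, so reads from the shared bases cannot be assigned. Since platelets also express Tbxas1, the higher platelet marker sum of replicate 1 stands beside the higher Tbxas1 of that library, and its part in the result was not tested.

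In the leukotriene branch the mRNA of the helper protein was high and that of the first enzyme was near 0. No protein was measured. Alox5ap encodes FLAP, the membrane protein that presents arachidonic acid to 5-lipoxygenase. Alox5ap (ENSMUSG00000060063.9, mm10 chromosome 5, 149264767 to 149288153, plus strand) had 153 TPM in replicate 2, from 5493 expected counts, and 122 in replicate 1, from 2569, a mean of 137 ± 21.8 TPM (SD, n = 2). It was the second highest of the 10 genes in both libraries. Transcript Alox5ap-201 held 83.5% of the TPM in replicate 2 and 82.5% in replicate 1. A short coding transcript, Alox5ap-202, held 16.5% in replicate 2, from 216 expected counts, and 1.85% in replicate 1, from 10.3. A processed transcript, Alox5ap-204, held 0 in replicate 2 and 15.7% in replicate 1, from 110 expected counts. In the second quantification Alox5ap-202 held 33.7% in replicate 2 and 0 in replicate 1. Alox5ap-204 there held 0 in replicate 2 and 4.30% in replicate 1.

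Alox5 encodes 5-lipoxygenase, which starts leukotriene synthesis. Alox5 (ENSMUSG00000025701.12, mm10 chromosome 6, 116410077 to 116461178, minus strand) had 0.03 TPM in replicate 2, from 2 expected counts, and 0.41 in replicate 1, from 7, with exact Poisson 95% intervals of 0.242 to 7.22 counts in replicate 2 and 2.81 to 14.4 in replicate 1. It was below 1 TPM in both libraries. A count of 0 would allow a mean of up to 3 counts, which bounds the mean and is no floor for an observed count. Both intervals include 3 and lie above 0. The TPM of Alox5ap over that of Alox5 came to 5092 in replicate 2 (counting interval 1409 to 42057) and 297 in replicate 1 (144 to 740), and the intervals show how little the few Alox5 counts fix this ratio. They hold the TPM per count of each gene fixed, at 0.015 for Alox5 in replicate 2 and 0.0586 in replicate 1. That factor depends on the transcripts to which the few counts were assigned, so the intervals do not measure a difference between the libraries. From counts alone, the interval of the Alox5 log2 ratio, replicate 2 over replicate 1, was -5.67 to 0.02 and includes no change. Both counts of replicate 2 were assigned to the nonsense-mediated decay transcript Alox5-208. In replicate 1 the processed transcript Alox5-203 held 82.3% of the TPM, while coding transcripts held 53.5% of the counts. Neutrophils and mast cells are known for high Alox5; the neutrophil marker sum was also the lower in replicate 2, and its part in the Alox5 counts was not tested.

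Lta4h encodes leukotriene A4 hydrolase, which makes leukotriene B4 and also works as an aminopeptidase. Lta4h (ENSMUSG00000015889.8, mm10 chromosome 10, 93453411 to 93484875, plus strand) had 13.5 TPM in replicate 2, from 915 expected counts, and 16.0 in replicate 1, from 605, a mean of 14.7 ± 1.80 TPM (SD, n = 2). Like Alox5ap, the Lta4h mRNA was detected in both libraries while that of Alox5 was not detected at 1 TPM. Its TPM was 448 times that of Alox5 in replicate 2 (counting interval 124 to 3708) and 39.0 times in replicate 1 (18.8 to 97.4). These intervals too hold the TPM per count of each gene fixed. The coding transcript Lta4h-201 held 91.3% of the TPM in replicate 2 and 83.6% in replicate 1. The processed transcript Lta4h-207, 540 bases long, held 7.55% in replicate 2 and 13.5% in replicate 1. Those shares rest on 12.3 expected counts in replicate 2 and 14.4 in replicate 1. In counts, the coding transcript took 98.4% in replicate 2 and 96.8% in replicate 1.

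Of the 10 genes 8 were led by a protein-coding transcript in both libraries, the exceptions being Ptges2 and Alox5, Alox5 from 2 counts in replicate 2 and 7 in replicate 1. Over 9340 detected protein-coding genes the share so led was 89.3%. Of the genes that neighbour or copy a synthesis gene, Ptgs2os, the antisense gene that starts 67 bases from Ptgs2, had 0.14 TPM in replicate 2 and 0.20 in replicate 1, and Ptgs2os2 had 0.94 TPM in replicate 2 and 1.99 in replicate 1. Both were far below Ptgs2. The antisense gene Gm19719 at Alox5ap was listed at 0 in both libraries, the antisense genes 1700025N23Rik and Gm42962 at Tbxas1 were at or below 0.25 TPM, the pseudogene Gm13400 inside Ptges had 0.86 TPM in replicate 2 and 0.33 in replicate 1, and Ptges3l had 0.72 TPM in replicate 2 and 2.29 in replicate 1. March8, on the other strand, ends 536 bases from the 3′ end of Alox5 and had 29.6 TPM in replicate 2, from 3192 expected counts, and 17.8 in replicate 1, from 1738.

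**Figure D2:**
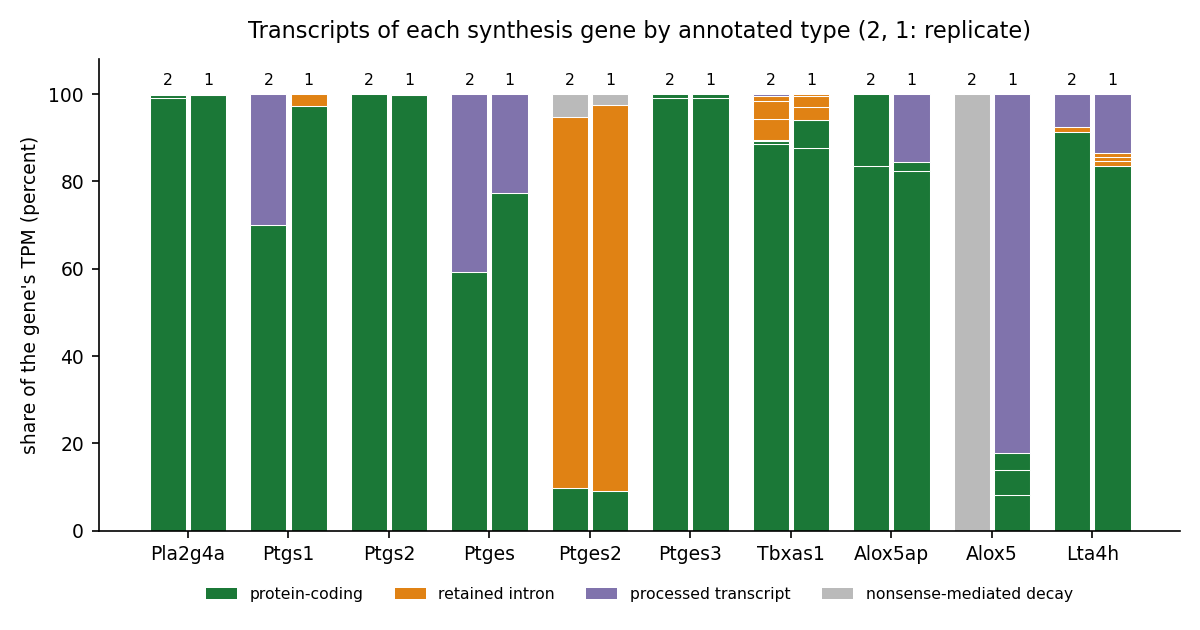
Share of each synthesis gene's TPM, in percent, held by its annotated transcripts, coloured by type, in replicate 2 (left bar) and replicate 1 (right bar); white lines part single transcripts. Ptges2 is mostly the retained-intron transcript in both libraries, at 85.1% in replicate 2 and 88.3% in replicate 1, and the Alox5 bars rest on 2 counts in replicate 2 and 7 in replicate 1.

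Before any correction for GC content, the libraries differed most for Ptges3, Ptgs2, Ptgs1 and Pla2g4a. Ratios were taken from library-scaled counts of 12226 genes, replicate 2 over replicate 1, and a gene was called at 1.5-fold or more; with 1 library on each side there is no test. Ptges3 had a log2 ratio of -1.07 (counting interval -1.15 to -0.998), 2.10-fold higher in replicate 1. Ptgs2 had a log2 ratio of -0.87 (-0.89 to -0.84), 1.82-fold higher in replicate 1. Those were the largest uncorrected differences among the 9 genes with enough counts. Pla2g4a had a log2 ratio of -0.62 (-0.69 to -0.54), 1.53-fold higher in replicate 1 and near the threshold. Ptgs1 went the other way, with a log2 ratio of 0.69 (0.48 to 0.92), 1.62-fold higher in replicate 2. With the trend over GC content and length removed, the calls of Ptgs2, Pla2g4a and Ptgs1 were lost, with values given beside the GC content below. The call of Pla2g4a was also lost with no filter on low counts, at -0.55, and that of Ptgs1 with library totals, at 0.51. The neutrophil and platelet marker sums given above were also higher in replicate 1, and their part in these ratios was not tested.

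Of the 9 genes 4 were thus past 1.5-fold, beside 35.8% of all genes kept; 1 of 9 was higher in replicate 2, beside 16.7%, and 3 of 9 were higher in replicate 1, beside 19.1%. The median absolute log2 ratio was 0.53 over the 9 genes and 0.43 over all genes. With so few genes these shares do not set the synthesis genes apart. The other 5 stayed within 1.5-fold, with log2 ratios of 0.53 for Alox5ap, -0.37 for Tbxas1, -0.14 for Ptges2, 0.11 for Ptges and 0.04 for Lta4h. Ptges and Lta4h turned negative when library totals replaced the scaling, at -0.07 for Ptges and -0.15 for Lta4h; that setting lowered the median of all genes by 0.19 (log2), and relative to it they stood at 0.11 and 0.04. With the trend over GC content and length removed they were negative too, at -0.12 for Ptges and -0.07 for Lta4h.

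**Figure D3:**
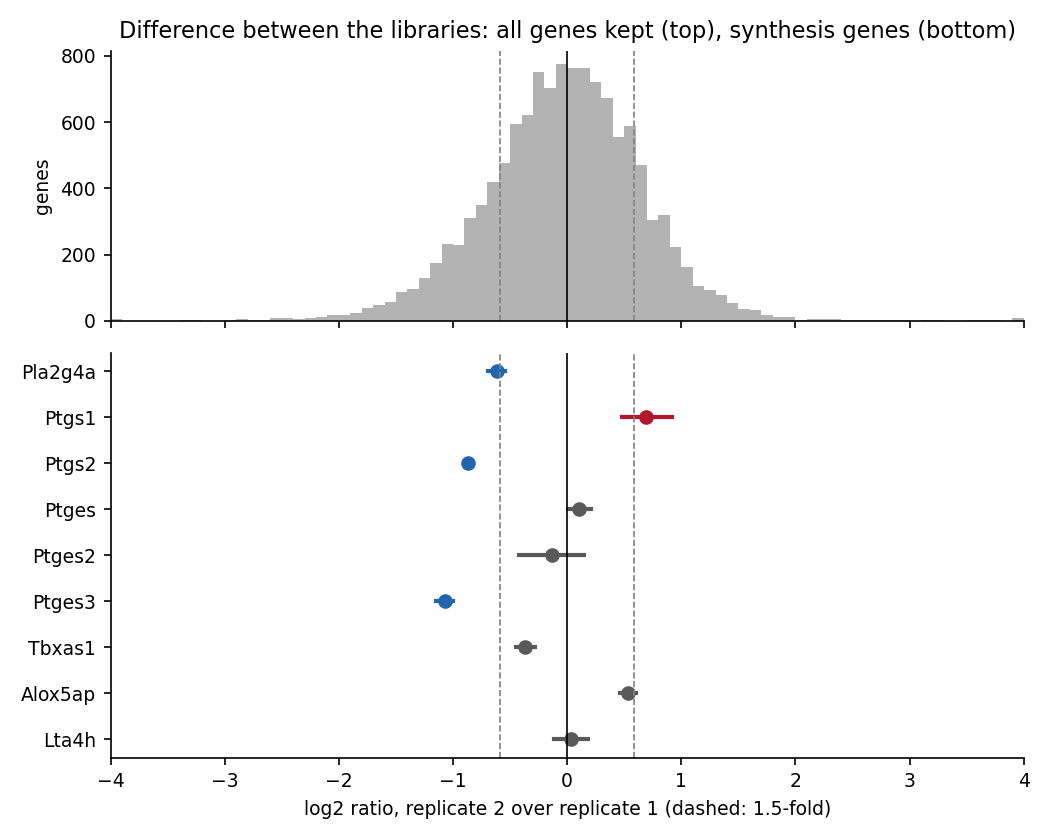
Top, number of genes by log2 ratio, replicate 2 over replicate 1, among the 12226 genes kept (values beyond the axis are in the end bars); bottom, the same ratio for the 9 synthesis genes with enough counts, with counting intervals as lines. Blue points are past 1.5-fold (dashed) and higher in replicate 1, red higher in replicate 2, grey within; Ptges3 is the farthest, at -1.07.

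The 3 genes that were past 1.5-fold and higher in replicate 1 have transcripts poor in G and C. Tbxas1 (log2 ratio -0.37, 51.5% GC) and Ptges2 (-0.14, 56.6% GC) lay on the same side within 1.5-fold and are not poor in G and C. GC content was 40.0% for Ptgs2, 42.1% for Pla2g4a and 43.2% for Ptges3, and between 48.5% and 56.6% for the other 6 genes with a ratio. Over all genes the ratio moved with GC content as well: its median was -0.70 in the lowest of 10 equal bins by GC (31.9% to 42.0%), which holds Ptgs2, and -0.36 in the next bin (42.0% to 44.3%), which holds Pla2g4a and Ptges3, against 0.18 in the bin that holds Ptgs1. With the trend over GC content and length removed, the log2 ratios were -0.30 for Ptgs2, -0.19 for Pla2g4a and 0.48 for Ptgs1, all within 1.5-fold, and -0.70 for Ptges3, which stayed past it. Tbxas1 then stood at -0.56 and Alox5ap at 0.52, both within 1.5-fold and farther from 0 than Ptgs2 and Pla2g4a. The fragment length implied by the deposited effective lengths was 247 bases in replicate 2 and 280 bases in replicate 1.

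**Figure D4:**
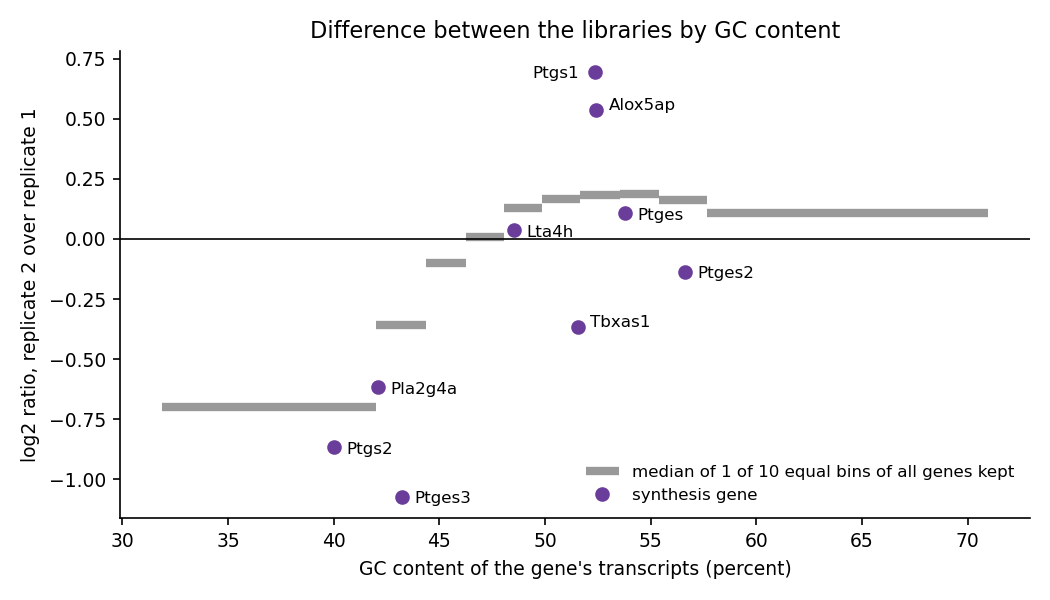
Log2 ratio, replicate 2 over replicate 1, against the GC content in percent of a gene's transcripts, for the 9 synthesis genes with enough counts (points) and as medians of 10 equal bins of all genes kept (grey bars). Ptgs2, Pla2g4a and Ptges3 lie at 40.0% to 43.2% GC, where the medians of all genes are below 0.

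Beyond the 10 genes, a wider list of 58 genes of the same lipids (release and re-uptake of the fatty acid, other synthases and lipoxygenases, receptors, export and breakdown) had 28 at 1 TPM or more in both libraries. That is 48.3% of the list, beside 42.4% of all protein-coding genes. Among 14 other genes listed for fatty acid release 4 were detected: Plaat3, a phospholipase also called Pla2g16 (42.9 TPM in replicate 2, 45.4 in replicate 1), Pla2g7, which hydrolyses platelet-activating factor (42.5 TPM in replicate 2, 22.4 in replicate 1), Pla2g15, the lysosomal phospholipase (21.5 TPM in replicate 2, 36.6 in replicate 1), and Pla2g12a (2.66 TPM in replicate 2, 3.80 in replicate 1). Pla2g4a was the only cytosolic group IV phospholipase gene of those examined at 1 TPM in both, since Pla2g4b, Pla2g4c, Pla2g4d, Pla2g4e and Pla2g4f stayed below it. All 6 genes that return fatty acid to phospholipid were at 10 TPM or more: the acyl-CoA synthetases Acsl1 (57.2 TPM in replicate 2, 56.1 in replicate 1) and Acsl4 (11.6 TPM in replicate 2, 19.3 in replicate 1), and the lysophospholipid acyltransferases Lpcat3 (41.4 TPM in replicate 2, 23.3 in replicate 1), Lpcat1 (25.8 TPM in replicate 2, 36.7 in replicate 1), Mboat7 (28.2 TPM in replicate 2, 17.7 in replicate 1) and Lpcat2 (28.7 TPM in replicate 2, 15.9 in replicate 1).

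Genes for the prostaglandin D2 and F2 alpha routes were detected, and the prostacyclin synthase gene was not. Hpgds, the haematopoietic prostaglandin D synthase, had 32.4 TPM in replicate 2 and 56.4 in replicate 1, whereas Ptgds, the other D synthase, had 1 expected count in replicate 2 and 0 in replicate 1. Among other synthesis enzymes, the genes of the prostaglandin F synthases Akr1b3 (90.2 TPM in replicate 2, 90.7 in replicate 1) and Prxl2b (8.20 TPM in replicate 2, 35.7 in replicate 1) were detected, as was the carbonyl reductase gene Cbr1 (9.05 TPM in replicate 2, 9.88 in replicate 1). Akr1b3 is better known as aldose reductase. Ptgis, the prostacyclin synthase, had 1 expected count in each library. In the leukotriene branch, Ltc4s, which joins leukotriene A4 to glutathione, had 4.11 TPM in replicate 2, from 65 expected counts, and 4.30 in replicate 1, from 39, and Cotl1, a partner protein of 5-lipoxygenase that also binds actin, had 155 TPM in replicate 2 and 242 in replicate 1. Both were thus detected where Alox5 was not. Of 6 other lipoxygenase genes Alox12 alone was detected, at 1.04 TPM in replicate 2 and 1.48 in replicate 1, and Alox15 had 1 expected count in replicate 2 and 2 in replicate 1.

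**Figure D5:**
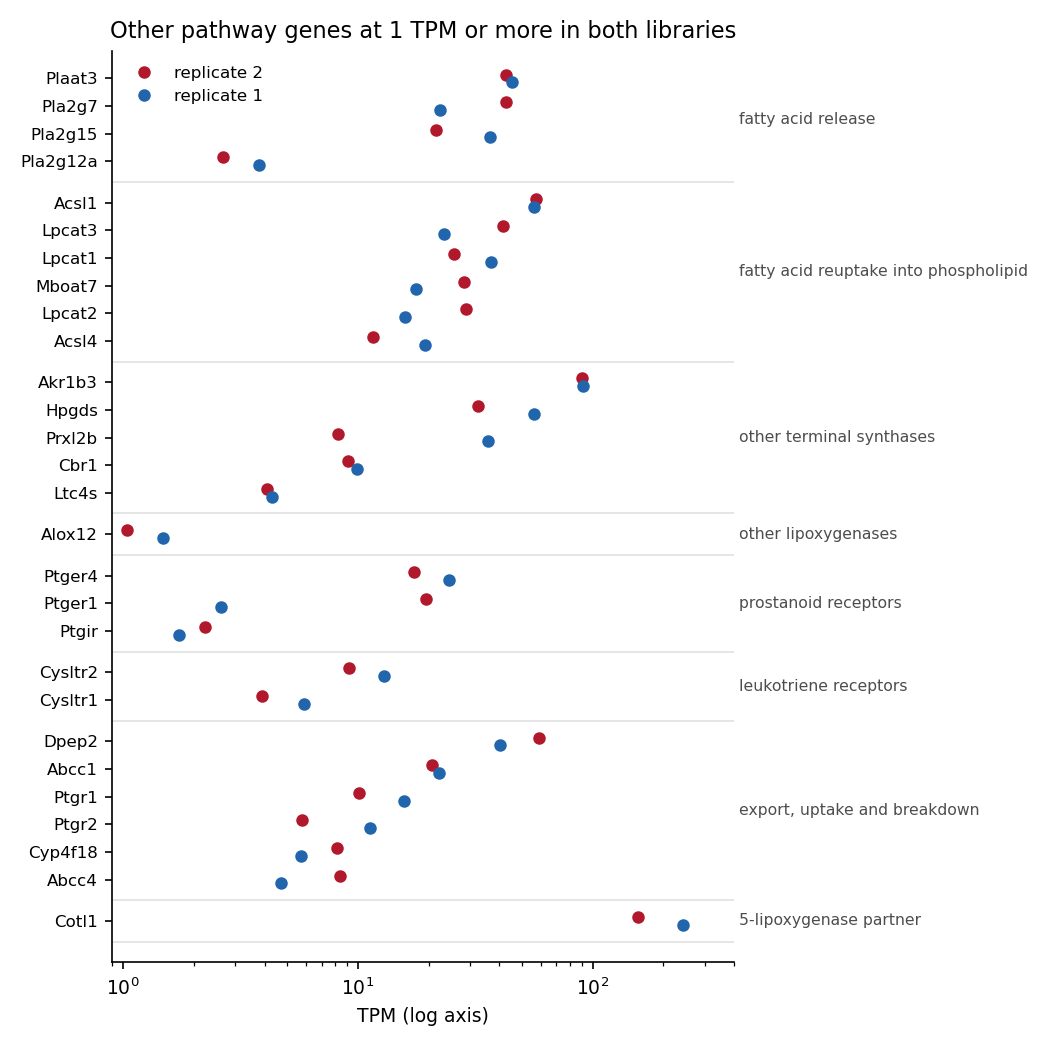
Level in TPM on a log axis of the 28 wider pathway genes at 1 TPM or more in both libraries, grouped by step, with replicate 2 in red and replicate 1 in blue. Cotl1 and Akr1b3 are the highest, and Ptger1 has the widest gap between libraries, which the second quantification does not show.

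On the receiving side 3 of 9 prostanoid receptors and 2 of 4 leukotriene receptors were detected. Ptger4, the EP4 receptor for prostaglandin E2, led with 17.3 TPM in replicate 2 and 24.5 in replicate 1, and Ptgir, the prostacyclin receptor, had 2.23 TPM in replicate 2 and 1.73 in replicate 1. Ptger1 was listed at 19.4 TPM in replicate 2 and 2.60 in replicate 1, but at 1.98 TPM in replicate 2 and 2.43 in replicate 1 in the second quantification, so its level is uncertain. The cysteinyl leukotriene receptors Cysltr2 (9.15 TPM in replicate 2, 13.0 in replicate 1) and Cysltr1 (3.89 TPM in replicate 2, 5.91 in replicate 1) were detected, while the leukotriene B4 receptors Ltb4r1 and Ltb4r2 stayed at 4 or fewer counts. Among 11 genes of export, uptake and breakdown 6 were detected: the dipeptidase Dpep2, which trims cysteinyl leukotrienes (59.1 TPM in replicate 2, 40.3 in replicate 1), the transporters Abcc1 (20.6 TPM in replicate 2, 22.1 in replicate 1) and Abcc4 (8.38 TPM in replicate 2, 4.68 in replicate 1), the reductases Ptgr1 (10.2 TPM in replicate 2, 15.8 in replicate 1) and Ptgr2 (5.76 TPM in replicate 2, 11.2 in replicate 1), and Cyp4f18 (8.16 TPM in replicate 2, 5.70 in replicate 1), a cytochrome that oxidises leukotriene B4. Hpgd, which inactivates prostaglandins, had 1.25 TPM in replicate 2 and 0.40 in replicate 1. Of the 33 wider pathway genes with enough counts 10 were past 1.5-fold and higher in replicate 2, beside 16.7% of all genes kept, 5 were higher in replicate 1, beside 19.1%, and 18 were within it. The 10 include Ptger1, whose level is uncertain.

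The second quantification, made by the authors from the same reads, gave levels within 1.5-fold of the first for all 10 synthesis genes in both libraries. Its largest departure was for Ptges in replicate 2, at 27.7 against 22.4 TPM, 1.23-fold. Between the genes its median log2 ratio to the first was -0.0014. It placed 9 of 10 genes at 1 TPM in both libraries, as the first did. Shares of single transcripts differed between the quantifications for some genes, as given above.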

How the data were processed

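Polyadenylated RNA was measured in 2 libraries of 1 group. The members and gene lists were chosen with earlier results of these data known. The authors deposited gene and transcript tables for mm10 and GENCODE M21, per the accompanying notes; their layouts are those of RSEM and, for the second quantification, kallisto, and versions of tools were not given in the sources used here. Deposited expected counts are estimated counts per gene with no normalization, with shared reads divided among genes. Deposited TPM values take account of transcript length and sum to 1 constant per library. Deposited FPKM values were used in 1 alternative. The deposited percent column gives a transcript's share of its gene's TPM. Whether counting used strand is not stated. Rows that name no annotated gene (26345 tRNA, spike-in and phage rows with 0.0882% of replicate 2 and 0.132% of replicate 1) were left out.

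Symbols were matched to gene IDs through the second quantification's names; Plaat3 and Prxl2b were matched by older names, and of the 2 gene IDs of Dpep2 the one with more counts was used. Genes at 1 TPM in both libraries were called detected. Expected counts were rounded, filtered by filterByExpr and scaled by TMM (edgeR 4.0.16, R 4.3.3). Ratios of replicate 2 over replicate 1 are log2, with 2 added as prior count, with exact binomial 95% intervals that cover counting error only. The step was tested on simulated counts with counting noise alone. Those lack the wider spread and the GC trend of these libraries, so the test checks the computation only. DESeq2 1.42.0 size factors were an alternative. With 1 library on each side there are no p-values. A technical spread between the libraries cannot be told apart from a difference between the cells. Named genes are the 10 members, wider pathway genes at 1 TPM in both libraries, the 2 highest of each marker list, transcripts at 10% or more of a gene's TPM in either library, and overlapping genes and copies; other genes below 1 TPM were named after their values were seen. A few genes under this rule are not reported here. No gene was named for a pattern like a member's, since 2 libraries of 1 group give none to compare. The 3′ UTR counts used each gene's protein-coding transcript with the most TPM, where a stop codon is annotated.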

Additional observations from a re-analysis of the deposited data

How the results depend on the processing

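The number of synthesis genes detected was 9 with a threshold of 0.5 TPM, in the second quantification, over nuclear protein-coding genes and in each library alone, and 8 at 5 TPM. The median of the genes' mean TPM was 28.2, ranged from 24.3 to 32.1 over the libraries taken alone, and was 34.0 when TPM was rescaled over nuclear protein-coding genes. Between the libraries 4 genes were past 1.5-fold; the count was 1 with the GC and length trend removed and 1 at a 2-fold threshold, Ptges3 both times, and 3 to 5 under the other 7 settings. The share of all genes called moved as well: 35.8% as reported, 29.7% with the trend removed, 13.2% at 2-fold and 29.2% to 46.1% under the others. With library totals Ptgs1 was within 1.5-fold (log2 ratio 0.51); without a filter on low counts Pla2g4a was within it (-0.55) and Alox5ap past it (0.60), as was Alox5 (-1.49 from 2 counts in replicate 2 and 7 in replicate 1); on the TPM scale Tbxas1 was past it (-0.64 with 1 TPM added, -0.65 with 0.1), and Lta4h turned negative (-0.23 and -0.25). No call changed direction under these settings. The mean log2 ratio of Ptgs2 over Ptgs1 was 5.48, 4.50 without replicate 1 and 6.46 without replicate 2. The same mean log2 ratio was 5.76 with coding transcripts alone and 5.33 in the second quantification. That of Alox5ap over Alox5 was 10.3, 12.3 without replicate 1, 8.22 without replicate 2, and 6.83 with 1 TPM added to each level. With coding transcripts alone the pairs with Alox5 gave no value, as replicate 2 had none, and Ptges over Ptges2 had a mean log2 ratio of 4.37, against 1.53 by whole gene. In the second quantification 7 genes were led by a coding transcript, against 8. The few Alox5 counts limit the precision of its values. No paired analysis was possible because the series holds 1 group.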
